A study of Mus musculus with 5 samples.

Results

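The regions described here are the anti-BCLAF1 CUT&RUN peaks of mouse LSK cells that had no counterpart in a Bclaf1 knockout library. They were chosen by overlap: on chromosomes 1 to 19, X and Y, a peak of either LSK list, native or fixed, was kept when it shared not even 1 bp with a peak of the knockout list. This left 120 of 770 native peaks (15.6%, exact 95% binomial interval 13.1 to 18.3) and 182 of 278 fixed peaks (65.5%, 59.6 to 71.0). Together they were 302 of the 6540 peaks in the 5 lists of the series. The absence of a knockout peak is the rule of choice and not a finding.

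BCLAF1 is a nuclear protein, related to THRAP3, that is associated with transcription, mRNA splicing and the response to DNA damage. CUT&RUN uses an antibody to bring a tethered nuclease to the protein of interest, so that the DNA next to it is cut free and sequenced. LSK cells are marrow or fetal liver cells without lineage markers that carry Sca1 and Kit, and they hold the blood stem cells and the earliest progenitors. Stem cells are kept by a circuit of transcription factors, among them RUNX1, MECOM (EVI1), HLF and ETV6.

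All 5 libraries were made from 50000 sorted mouse cells with the same anti-BCLAF1 antibody. The LSK cells were labelled WT and were processed either native or after 2 min in 0.1% formaldehyde, with 1 library each. For LSK cells the protocol names bone marrow of 2 to 3 pooled adult mice, but the tissue is labelled E17.5 fetal liver for both libraries. The knockout (KO) library, 1 in all, and the 2 HSC WT libraries came from E17.5 fetal liver stem cells pooled from 24 to 26 embryos. These HSC libraries were processed without formaldehyde. The labels give the genotypes as KO and WT, with no allele or Cre line. The KO library was therefore made from stem cells and not from LSK cells. For every region below, the absence of BCLAF1 and the difference in cell type, and possibly in age, cannot be told apart. For the fixed regions the formaldehyde step is a further difference that cannot be told apart from these. Peak lists hold no expression values, so neither the sort nor the genotype could be checked against marker genes.

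Depth is not given in the files, and the reads at each peak summit were recovered from the deposited statistics. The lowest number of reads recovered at a peak was 9 in the KO list, 6 in the native and 3 in the fixed LSK list. The KO list was the longest, with 4517 peaks on the chromosomes used. HSC WT 1 had 447, HSC WT 2 had 528, native LSK had 770 and fixed LSK had 278. The library labelled as lacking BCLAF1 thus had the most peaks. Whether a peak marks BCLAF1 itself was not tested. Each LSK condition and KO had 1 library, so no comparison across samples was tested.

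The stem cell genes among these regions are shown first by the DNA in front of the annotated start nearest to a region. A promoter window was taken as 250 bases before to 50 after a RefSeq start. Of the 296 regions on chromosomes with analysed starts, 0 overlapped one of 32851 windows, which allows a share of up to 1.01%. A region called in both LSK lists counts once for each. Over the whole lists 5 of 751 native peaks (0.666%) and 0 of 273 fixed ones overlapped a window, so the absence is not read as a trait of the regions. The closest approaches at genes of the stem cell list with an analysed start were at Hlf and Runx1. Thy1 had no analysed start, so the share in promoter windows does not cover its own start. The 250 bases before each of these starts are given below from RefSeq (GRCm38.p6, the same coordinates as mm10), 5′ to 3′ on the minus strand, with the 10 bases next to the start in capitals. They are chr11:90390918-90391167 for Hlf and chr16:92697330-92697579 for Runx1.
Hlf: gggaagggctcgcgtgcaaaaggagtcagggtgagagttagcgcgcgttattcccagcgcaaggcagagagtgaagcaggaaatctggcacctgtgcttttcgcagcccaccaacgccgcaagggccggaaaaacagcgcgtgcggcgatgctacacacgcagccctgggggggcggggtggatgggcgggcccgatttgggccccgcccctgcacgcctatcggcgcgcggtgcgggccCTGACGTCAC
Runx1: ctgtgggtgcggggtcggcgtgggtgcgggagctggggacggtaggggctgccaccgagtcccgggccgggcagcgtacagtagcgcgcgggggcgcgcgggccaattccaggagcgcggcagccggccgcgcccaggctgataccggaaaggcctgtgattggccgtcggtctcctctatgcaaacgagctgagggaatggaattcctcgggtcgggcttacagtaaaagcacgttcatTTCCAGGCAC
Both stretches were rich in G and C, at 67.2% for Hlf and 67.6% for Runx1, against a median of 52.4% over all windows. The windows also hold 50 bases after the start and include starts of non-coding genes, so the values are not like for like. The Hlf region began 535 bp downstream of its start and the Runx1 region 1592 bp downstream of its start, so both lay in the transcribed part and not in the sequence shown.

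In fixed LSK cells 4 of 38 genes of a stem cell identity list held a region without a KO peak inside the gene or within 10 kb (10.5%). Over all 21887 protein-coding genes the share was 0.503% in that library. These 4 genes were Runx1, Mecom, Hlf and Thy1. In native LSK cells 2 of 38 did (5.26%), Etv6 and Thy1, against 0.279% of all protein-coding genes. Among LSK peaks on a KO peak the same list had Erg in native cells and no gene in fixed cells. The stem cell genes are long, with a median of 33720 bp against 17169 bp over all genes, and a long gene has more room for a peak. By length, they take up 0.334% of all gene bases. Of the regions inside genes, 5 of the 79 fixed (6.33%) and 2 of the 46 native ones (4.35%) lay in them. Gene length as a cause was not tested. The list was written with earlier results on Hlf and Thy1 known, and both genes are in these counts. No test was made of the list, and its shares are a description.

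Runx1 encodes the DNA-binding partner of CBFB that is needed for blood stem cells to form, and it is transcribed from a distal and a proximal promoter. The gene lies on chromosome 16 from 92601466 to 92826074, on the minus strand. It held 2 regions of the fixed library. One, from 92695532 to 92695737, had an enrichment of 11.3 from 12 reads and lay 1592 bp downstream of an internal start, which itself lies 128745 bp from the 5′ end of the gene. The other, from 92644182 to 92644341, had an enrichment of 11.8 from 12 reads and lay 51191 bp from the first. Enrichment is the deposited ratio of reads to local background, with a pseudocount of 1 on each, and it is not scaled between libraries. These were the regions ranked 13 and 14 of the 182 fixed ones, and at 160 and 206 bp they were wider than the median of 90 bp. No other list had a peak in Runx1. The nearest KO peak lay 387846 bp away, and the nearest native LSK and HSC WT 1 peaks each lay 1093453 bp away.

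Mecom encodes EVI1, a zinc finger transcription factor that stem cells need to renew themselves. In fixed LSK cells 11 reads gave an enrichment of 11.1 at its region, which spans 29986246 to 29986328 of chromosome 3. It lay 26876 bp from the nearest of the gene's annotated starts, in a gene of 558464 bp, and 2041272 bp from the nearest KO peak. HSC WT 2 had a peak elsewhere in the gene, with an enrichment of 4.48 from 4 reads, 388655 bp from the fixed region. Hlf encodes a PAR bZIP transcription factor whose expression marks stem cells. Its region spans 90390281 to 90390382 of chromosome 11, with an enrichment of 3.91 from 3 reads, the lowest read number called in that list. Etv6, an ETS family repressor needed for adult stem cells to survive, held a native region on chromosome 6 from 134119710 to 134119793. This region had an enrichment of 5.27 from 6 reads, again the lowest number of its list, and lay 84010 bp from the start of Etv6. A KO peak with an enrichment of 6.06 lay 164389 bp from it, past the end of the gene.

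**Figure D1:**
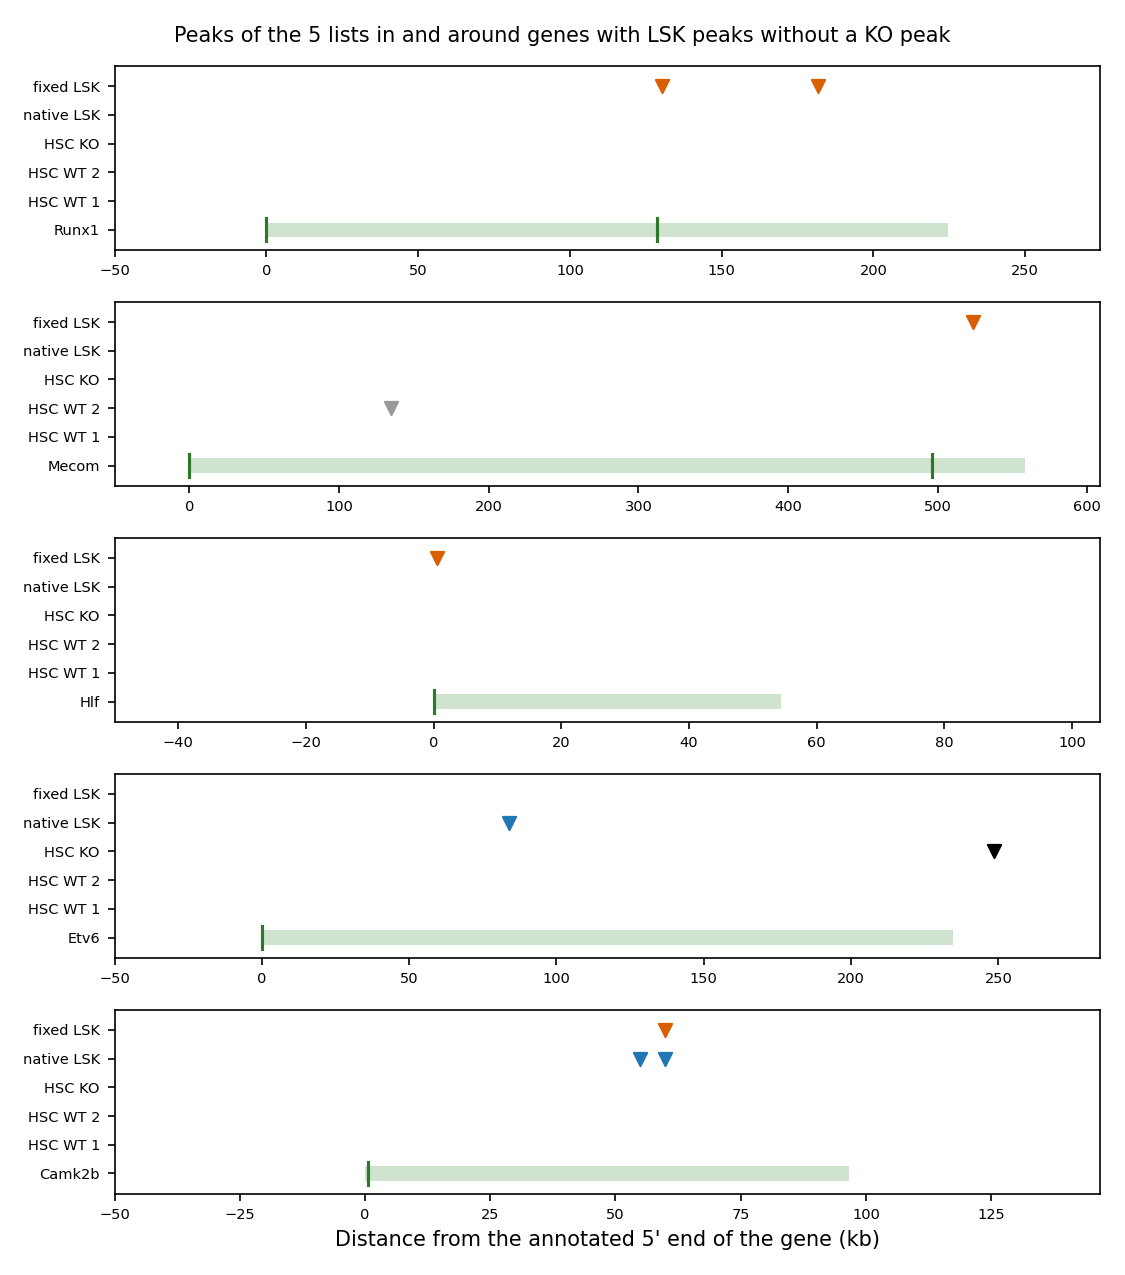
Peaks of all 5 lists in and within 50 kb of 5 genes. The x axis is the distance in kb from the annotated 5′ end of each gene, green bars are gene bodies, dark green lines are annotated starts, and each triangle is a peak summit in the list named on the y axis. In Runx1 and Hlf the triangles are all in the fixed LSK row, and in Camk2b native and fixed LSK cells share a position.

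Other gene lists had few or no such regions. Of 250 distinct genes in 12 lists, 2 held one within 10 kb in native and 5 in fixed LSK cells (0.800% and 2.00%). Outside the stem cell list the one hit was Afp, which encodes alpha-fetoprotein, a plasma protein made before birth. Its region, on chromosome 5 from 90509545 to 90509644, lay 638 bp past the gene and had an enrichment of 3.91 from 3 reads in fixed cells. The other 18 hepatocyte genes had none in either library. Neither Bclaf1 nor Thrap3 had one. There was also none at the 36 matched interferon response genes, the 24 genes of NF-kB and inflammation, the 24 of p53 and apoptosis, or the 26 splicing and mRNA processing genes. The 17 matched erythroid, 18 myeloid, 20 lymphoid, 14 megakaryocyte and 12 histone genes had none either. Over all protein-coding genes the share was 0.279% in native and 0.503% in fixed cells. At such shares lists of this size would mostly have none, so nothing is read from their absence.

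Regions called in both LSK lists numbered 4. That is 3.33% of the 120 native regions (exact 95% interval 0.916 to 8.31) and 2.20% of the 182 fixed ones (0.602 to 5.53). Over the whole lists, 10.4% of native peaks lay on a fixed peak and 29.5% of fixed peaks lay on a native peak. The 4 regions were among the stronger ones, ranking 1, 2, 3 and 25 in native and 4, 5, 10 and 24 in fixed cells.

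A pair of them lay next to each other on chromosome 8. The first, from 123425835 to 123425955, was 3821 bp from Tubb3, which encodes a beta-tubulin best known from neurons. It had an enrichment of 19.6 from 25 reads in native and 27.7 from 34 reads in fixed cells. The second, from 123434040 to 123434159, was 8797 bp from Def8. Its enrichment was 19.3 from 26 reads in native and 20.3 from 23 reads in fixed cells. Within each pair of peaks the summits lay 2 bp and 1 bp apart, and the regions were separated by 8093 bp in the native and 8085 bp in the fixed list. The nearest KO peak lay 982866 bp from the second region, and the nearest HSC WT 1 peak 1543801 bp from the first.

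The third lay inside Camk2b, the gene of the beta subunit of calcium/calmodulin-dependent kinase II, on chromosome 11 from 6006254 to 6006580. With 308 bp in native and 290 bp in fixed cells it was wider than the others. Its enrichment was 17.8 from 28 reads in native and 13.9 from 18 reads in fixed cells, with the summits 145 bp apart. Native cells had another region in Camk2b, from 6011375 to 6011491, 4795 bp away, with an enrichment of 11.4 from 17 reads. The fourth lay inside Thy1, the gene of a surface antigen used to sort stem cells, on chromosome 9 from 44046657 to 44046904. Its enrichment was 7.40 from 9 reads in native and 7.51 from 8 reads in fixed cells. The native Thy1 peak spanned 89 bp and the fixed one 248 bp, with summits 130 bp apart.

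**Figure D2:**
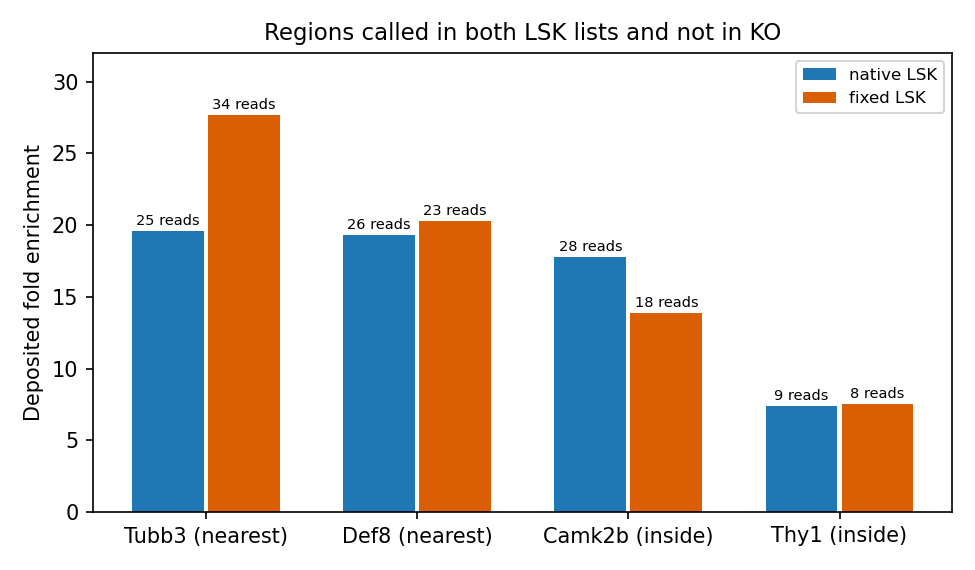
Deposited fold enrichment (y axis) of the 4 regions called in both LSK lists and not in KO, with native LSK cells in blue and fixed LSK cells in orange and the recovered reads above each bar. The regions near Tubb3 and Def8 have enrichments of 19.3 to 27.7 and the Thy1 region 7.40 and 7.51; each bar is 1 peak of 1 library, and the libraries are not on a common scale.

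Against the fetal liver stem cells, 0 of the 120 native regions lay on a peak of either HSC WT list, which allows a share of up to 2.50%. Among all native peaks the share was 48.7%. Of the 182 fixed regions 1 did (0.549%, exact 95% interval 0.0139 to 3.02), against 25.5% of all fixed peaks. Of the LSK peaks on a KO peak, 57.7% in native and 72.9% in fixed cells also lay on an HSC WT peak, so the rule itself removes HSC WT peaks and nothing is read from these shares. The single shared region was the strongest of the fixed library. It lay on chromosome 6 from 10186383 to 10186461, in a stretch without protein-coding genes, 936764 bp from Nxph1, which encodes a ligand of neurexins. It had an enrichment of 61.2 from 109 reads in fixed LSK cells and 18.7 from 22 reads in HSC WT 2. The KO list had no peak within 375314 bp of it and HSC WT 1 none within 100685 bp. This region was not called in native LSK cells.

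The regions were weaker than the rest of their lists. In native cells their enrichment ran from 4.31 to 19.6 with a median of 6.03, against a median of 9.79 for the 650 native peaks on a KO peak. In fixed cells it ran from 3.83 to 61.2 with a median of 3.91, against 7.47 for the 96 on a KO peak. Median widths were 80 bp in native and 90 bp in fixed cells, against 101 and 97 bp for peaks on a KO peak. These values come from the lists that chose the regions and are given as a description.

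**Figure D3:**
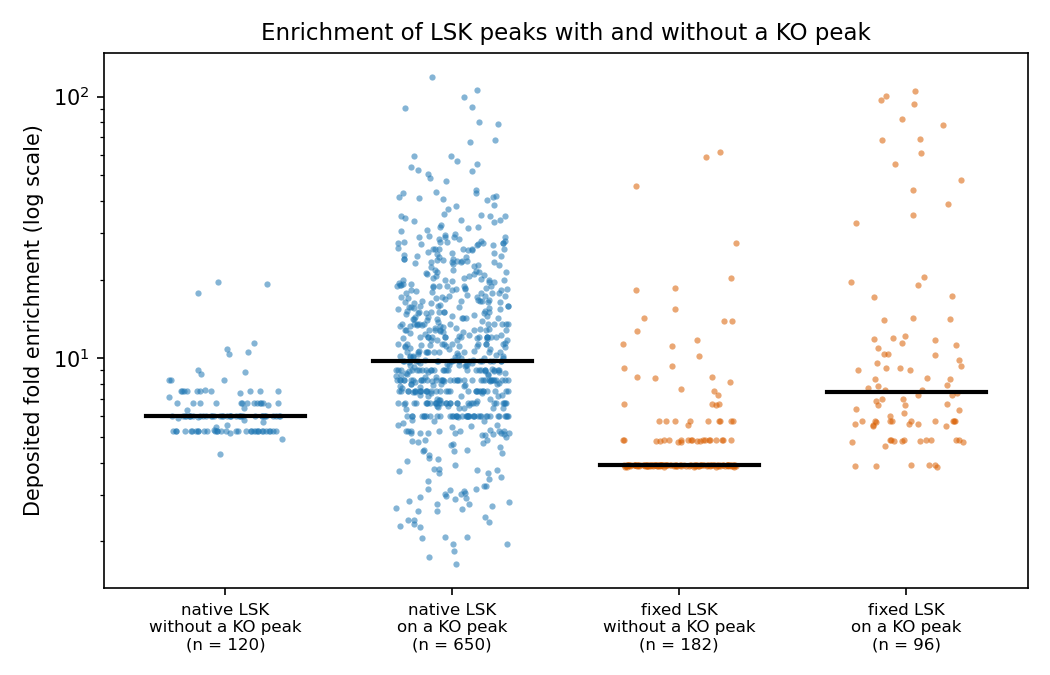
Deposited fold enrichment (y axis, log scale) of every LSK peak, split by library and by overlap with a KO peak. Each point is a peak and black lines are medians, at 6.03 and 9.79 in native and 3.91 and 7.47 in fixed cells; most regions without a KO peak sit at the low end, with a few fixed ones above 40.

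Most regions rested on few reads. In native cells 33 of 120 had 6 reads and 43 had 7, and 44 (36.7%) had at least 8. In fixed cells 121 of 182 had 3 reads (66.5%) and 22 had 4, and 23 (12.6%) had at least 8. In native cells 93 of 120 regions (77.5%) stood on the common background of the list, 0.327 reads per position. In fixed cells the local background rose with a peak's own reads. In 115 of 182 regions (63.2%) reads over local background came within 1% of 137, the highest value. A region of 3 reads stood on 0.0220 reads per position, and the strongest, of 109 reads, on 0.798. The most common fixed background is thus set by the peaks of 3 reads and gives no measure of that library's depth.

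**Figure D4:**
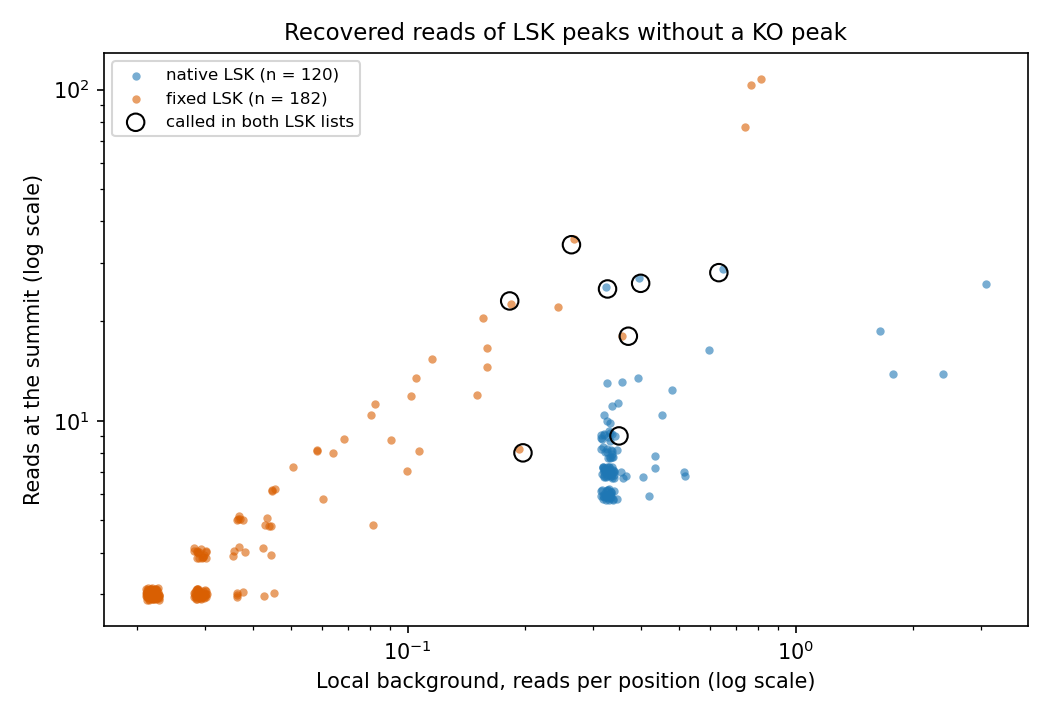
Reads at the summit (y axis, log scale) against local background in reads per position (x axis, log scale) for the 302 regions, with native LSK in blue, fixed LSK in orange and a small jitter to separate points; circles mark the 4 regions called in both lists. Native regions stack at a background of 0.327, while fixed regions follow a diagonal from 3 reads at 0.0220 to 109 reads at 0.798.

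The 3 strongest fixed regions were not called in native cells. After the one near Nxph1 came a region on chromosome 14 from 107075300 to 107075378, 939438 bp from Trim52, with an enrichment of 58.7 from 102 reads. The third, of 45.4 from 77 reads, lay inside Ano2, a calcium-activated chloride channel gene, on chromosome 6 from 125876911 to 125877108. These 3 stood on local backgrounds 32.6 to 36.3 times the most common one of the list, which is that of peaks of 3 reads. Their reads over local background were 107 to 137, so these backgrounds rose with the peaks' own reads. A region of 18.6 lay 191723 bp from 1500009L16Rik, at 83954485 to 83954629 of chromosome 10. Another inside Mterf1a, a factor that ends mitochondrial transcription, had 18.2 on chromosome 5 from 3874828 to 3874907. This one lay 2440 bp from a KO peak and 2445 bp from a native LSK peak. The remaining ones of the strongest 12, beside those near Tubb3, Def8 and in Camk2b, fell between 12.7 and 15.5. They lay 69179 bp from Itga11, a collagen-binding integrin gene, 124785 bp from Marcks, a substrate of protein kinase C, and 2040 bp from Fhl2, a LIM domain cofactor. The last lay inside Marchf1, a membrane-bound ubiquitin ligase gene.

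In native cells the 12 strongest regions were, after those near Tubb3 and Def8 and the pair in Camk2b, between 8.29 and 10.9 in enrichment. A region 6022 bp from Sntg1, a syntrophin gene, had 10.9 from 14 reads on chromosome 1 from 8353649 to 8353717. One near Zfy2, a zinc finger gene of the Y chromosome, had 10.5 from 13 reads and lay 17933 bp from the gene. Wdfy2, an endosomal adaptor gene, held one of 10.4 from 13 reads. The others lay 63511 bp from Gpr173, an orphan receptor gene, 15547 bp from Strip2, 11275 bp from Mup7, a major urinary protein gene, 20702 bp from Myh2, a fast skeletal muscle myosin gene, and 290721 bp from Saraf, a regulator of calcium entry. Of these 12 none but those near Tubb3 and Def8 and the wider one in Camk2b was called in fixed cells. A set of 3 native regions with raised local backgrounds of 1.73 to 3.02 reads per position lay on chromosome Y, within 55407 bp of Gm52481, with enrichments of 4.31 to 6.46.

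Regions close to a gene boundary were few: 1 of 120 in native (0.833%) and 5 of 182 in fixed cells (2.75%) lay within 1 kb, against 3.08% and 2.08% of peaks on a KO peak. The native one lay 897 bp from Slc11a1, a metal transporter gene of phagocytes, with an enrichment of 5.27 from 6 reads. The fixed ones were those at Hlf and Afp and regions 238 bp from a boundary of Dcpp2, 363 bp from one of S100a7a, an S100 family gene, and 478 bp from one of Pygm, the muscle glycogen phosphorylase gene. Their enrichments were 3.89 to 4.86, from 3 or 4 reads. By distance to the nearest start, 1 native region lay within 1 kb, in Slc4a4, a sodium bicarbonate transporter gene, 814 bp from a start, and 25 of 117 (21.4%) lay between 1 and 10 kb. In fixed cells 4 lay within 1 kb and 32 of 179 (17.9%) between 1 and 10 kb. The largest class, 10 to 100 kb from a start, held 47.0% of native and 50.8% of fixed regions. Over the whole lists this class held 48.6% of native and 49.1% of fixed peaks. The class of 1 to 10 kb held 15.7% and 15.4% of them. Distance to a start is thus not read as a trait of the regions. Starts were not analysed on chromosome 18, which held 3 regions of each library, and these are left out of the shares by distance to a start. On other chromosomes some genes had no analysed start either. Thy1 was one, and its regions were measured to the start of Gm39323. Distances to a start hold only for the starts analysed.

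Inside protein-coding genes lay 46 of 120 native regions (38.3%, exact 95% interval 29.6 to 47.6), against 167 of 650 native peaks on a KO peak (25.7%, 22.4 to 29.2) and 27.7% of the whole list. The difference was 12.6 percentage points (Fisher's exact test, two-sided, adjusted p = 0.00549 over 2 libraries). In fixed cells it was 79 of 182 regions (43.4%, 36.1 to 50.9) against 21 of 96 (21.9%, 14.1 to 31.5), with 36.0% in the whole list. This difference was 21.5 points (Fisher's exact test, two-sided, adjusted p = 0.000747). Each test compares the peaks of 1 library and treats every peak as a separate observation. The shares were not set against the share of the genome inside protein-coding genes. The differences are thus between peaks of a list and are not read as a preference of the regions for genes. Crowded peaks, those closer than 10 kb to another peak of their list, made up 27.2% (native) and 34.4% (fixed) of the peaks on KO peaks and 8.33% and 1.10% of the regions. When these were left out, the differences were 7.59 and 13.7 points and neither passed (Fisher's exact test, adjusted p = 0.143 for both). Neither passed without the peaks of the lowest read number of each list (9.93 and 17.7 points, Fisher's exact test, adjusted p = 0.0539 for both). With the KO list held to as many of its strongest peaks as the LSK list has, the native difference turned to -5.82 points.

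**Figure D5:**
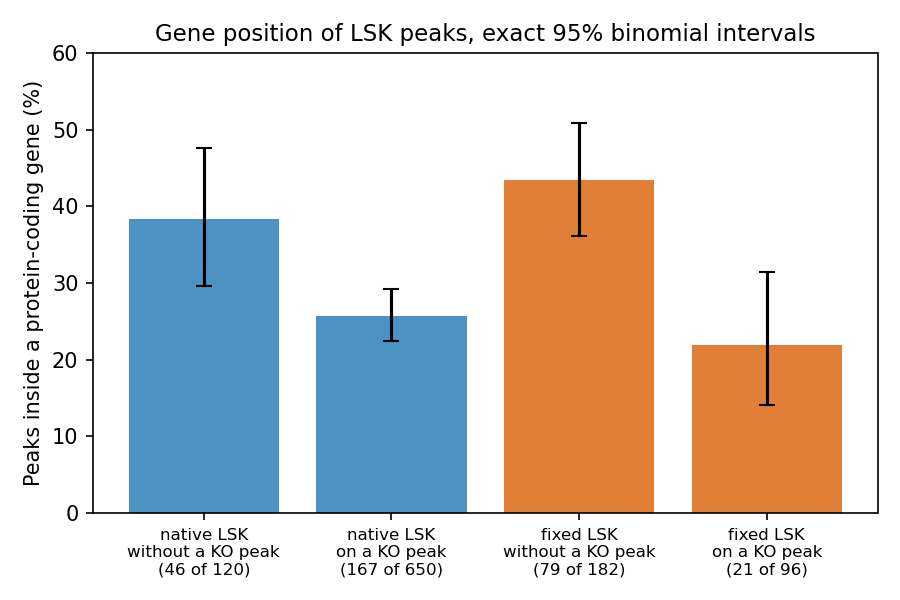
Share of LSK peaks inside a protein-coding gene (y axis, percent) by library and by overlap with a KO peak, with exact 95% binomial intervals as error bars. Regions without a KO peak have shares of 38.3% in native and 43.4% in fixed cells, and peaks on a KO peak 25.7% and 21.9%.

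The genes that held regions were long. The native regions inside genes lay in genes of a median 173813 bp and the fixed ones in genes of 181271 bp. For peaks on KO peaks these medians were 145889 bp in native and 190870 bp in fixed cells, so that the order differed between the libraries. Of the native ones 32 of 46 (69.6%) and of the fixed ones 48 of 79 (60.8%) lay in genes over 100 kb. For peaks on KO peaks the shares were 61.1% and 52.4%. Counted by bases, 50% of all protein-coding gene sequence lies in genes of 138371 bp or more, so long genes hold most of the space. A group of 4 long genes held a native and a fixed region at separate places. They were Atxn1, the ataxin 1 gene, Cntnap2 and Lrp1b, a neurexin family and an LDL receptor family gene, and Nav2, a neuron navigator gene. In these 4 genes native enrichments were 6.03 to 6.78 and fixed ones 3.89 to 5.79. The gene of Serinc5, a membrane protein of the family named serine incorporators, held 2 native regions, of 6.78 and 6.03.

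Few regions lay near the edge of the rule. The fixed region closest to a KO peak lay inside Ogt, the O-GlcNAc transferase gene, on chromosome X from 101680470 to 101680553, with an enrichment of 8.44 and a gap of 19 bp to a KO peak of 7.45. The next were 1315 bp and 1837 bp away, each from 3 reads. The native region closest to a KO peak, 15111 bp from Gm40035 on chromosome 2, had an enrichment of 7.11 and a gap of 140 bp to a KO peak of 5.97. Those on chromosome Y near Gm52481 and Zfy2 followed, at 1141 and 1196 bp. On the other side of the rule, the smallest overlaps were 19, 23 and 34 bp in native cells, with enrichments of 5.27 to 5.74. They were 17, 33 and 59 bp in fixed cells, with enrichments of 3.91 to 4.86, the first 69943 bp from Podxl. Of the native regions 29.2% and of the fixed ones 25.3% lay within 100 kb of a KO peak, and the median gaps were 220700 and 257400 bp. These gaps were not compared with those of random positions, so they are not read as a trait of the regions.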

How the data were processed

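Each library has 1 deposited peak list in mm10, a build named in the submitters' processing notes. Aligner, caller and control stand as not given in the sources used here. For each peak the authors deposited a fold enrichment (ratio), a −log10 p-value, a −log10 q-value and a score equal to 10 times the latter, rounded down. Reads were recovered as the whole number that gives both the enrichment (pseudocount 1) and the Poisson tail, for −log10 p-values of at most 300 (relative tolerance 0.0001), and 100% of those peaks had one. Intervals cover counting error only, since PCR copies cannot be told from separate molecules.

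Gene positions came from RefSeq (GRCm38.p6), starts and sequences from its promoter table. Exons and introns were not analysed. Of 253 listed genes, 250 matched. Tables were compared by Fisher's exact test with Benjamini-Hochberg adjustment over 2 libraries. Members and lists were chosen with earlier results of these data known. Genes were named by rule: regions in both LSK lists or on HSC WT peaks, the 12 strongest per library, those within 1 kb of a gene boundary, list genes within 10 kb, and 3 on each side of the overlap rule. Genes with several regions were named after their values were seen. Alternatives changed the overlap, q-value, KO list length, crowding, sequences and lowest reads. Scripts (Python 3.11.15, SciPy 1.17.1, pandas 2.3.3) were tested on simulated data.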

Additional observations from a re-analysis of the deposited data

How the results depend on the processing

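The share of LSK peaks without a KO peak stayed within its interval when 50% of the LSK peak had to be covered, when KO peaks were widened by 500 bp and on all sequences. With a −log10 q of at least 5 it was 6.44% in native and 33.9% in fixed cells. With the KO list held to the length of the LSK list it was 44.2% and 89.2%, and without crowded peaks 18.9% and 74.1%. Without peaks of the lowest read number, an alternative chosen after seeing the data, it was 11.9% and 40.4%. The inside-gene difference in native cells was 6.37 points at that q-value, -5.82 with the shorter KO list, 7.59 without crowded peaks and 9.93 without the lowest read number (adjusted p = 0.360, 0.0749, 0.143 and 0.0539, Fisher's exact test). For fixed cells that q-value gave 27.1 points and the call held (adjusted p = 0.00859, Fisher's exact test), while the last 3 gave 21.6, 13.7 and 17.7 points (adjusted p = 0.0507, 0.143 and 0.0539, Fisher's exact test). The cause was not tested. The count of 4 regions in both LSK lists was 34 with the shorter KO list and 1 without crowded peaks, which leaves out the neighbouring regions near Tubb3 and Def8 and those in Camk2b. It was 4 under the other alternatives. The count on an HSC WT peak was 0 to 1 in fixed cells when either HSC WT list was left out, and 1 in native cells with HSC WT peaks widened by 500 bp. No paired analysis was possible because each LSK condition has 1 library.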

Other observations

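Regions without a KO peak were found on each of chromosomes 1 to 19, X and Y, from 1 native region on chromosome 17 to 15 on chromosome 6. In fixed cells chromosome 3 had the most, with 15, and chromosomes 15 and 18 the fewest, with 3 each. Of the 101 native peaks on chromosome 9, 4 lacked a KO peak (3.96%), and of the 33 fixed ones 9 did (27.3%). Over the whole lists 15.6% of native and 65.5% of fixed peaks lacked a KO peak. Where on chromosome 9 its peaks lie was not taken into account. On sequences other than chromosomes 1 to 19, X and Y 1 of 123 native and 0 of 11 fixed peaks lacked one. A single native region, near Cdc25a, a cell cycle phosphatase gene, lay within 10 kb of an annotated microRNA, Mir7089, with an enrichment of 6.03 from 7 reads. In fixed cells no region did. That is 0.833% of the native regions, and over the whole lists 4 of 770 native peaks (0.519%) and 0 of 278 fixed ones did. MicroRNAs on chromosomes 18 and Y were not analysed.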
